A study of Mus musculus with 8 samples.

Results

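The proteasome subunit genes of the mouse were compared between cells lacking TOX and wild-type cells sorted from bone marrow. Members were taken by name, as every gene whose symbol begins with Psma, Psmb, Psmc, Psmd, Psme, Psmf or Psmg followed by a digit. The rule found 49 of the 23846 entries of the expression table, and no member symbol was listed more than once. Of the 49 members, 5 belong to the immunoproteasome (Psmb8, Psmb9, Psmb10, Psme1 and Psme2) and 44 make up the rest. The rule works on names alone, so it also took Psmc3ip, which encodes a partner protein in meiotic recombination and not a proteasome subunit.

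There were 4 TOX knockout and 4 wild-type libraries, each made from the total RNA of sorted bone marrow cell populations with a low-input SMARTer cDNA kit and sequenced on an Ion Proton. TOX is a nuclear HMG-box protein of developing lymphocytes, and the series concerns its part in forming the progenitors of innate lymphoid cells (ILCs). Both groups were sorted in the same labelled way, but the sources used here name neither the sorted population, the knockout allele and the tissues in which it acts, nor the strain and age of the mice. The labels do not say that each library came from its own animal, so the p-values below measure the spread between these libraries, part of which may be technical. The libraries are called by the number 10, 11, 16 or 29 that their columns carry. The labels do not say whether a shared number pairs a TOX knockout library with a wild-type one. Groups were compared as unpaired.

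The proteasome degrades proteins that carry ubiquitin chains. Its barrel-shaped core particle has outer rings of alpha subunits and inner rings of beta subunits, of which Psmb5, Psmb6 and Psmb7 cut peptide bonds; the regulatory particle that caps it holds a ring of ATPases at its base and a lid that removes ubiquitin. In lymphoid and other blood cells Psmb8, Psmb9 and Psmb10 can take the places of Psmb5, Psmb6 and Psmb7, which gives the immunoproteasome, and the PA28 cap of Psme1 and Psme2 can bind in place of the regulatory particle. Interferon gamma induces these 5 genes, whose products favour peptides that fit MHC class I molecules.

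Tox was listed at 2.34, 0.107, 0.928 and 0.242 FPKM in TOX knockout libraries 10, 11, 16 and 29, against 107, 119, 123 and 92.4 FPKM in the wild-type libraries of the same numbers. FPKM is the number of fragments mapped to a gene divided by its length and by the mapped fragments of its library. Summed FPKM ranged from 208351 to 632604 in TOX knockout and from 296777 to 365906 in wild-type libraries, and the number of genes at or above 1 FPKM from 7328 to 10600 in TOX knockout and from 10425 to 10481 in wild type. Barcodes 17 to 20 and 40 to 43 are called the first and second barcode run here, though no label names a run. TOX knockout library 16 held the fewest such genes, although the steps between its low values put its depth above that of the other libraries of its barcode run. The absolute depth is unknown. Of 10 genes of ILC progenitors, Tox among them, 9 were called lower in TOX knockout cells as deposited, beside 184 of 10693 genes. The list summed to 139 to 595 FPKM in TOX knockout libraries, against 2089 to 2917 FPKM in wild type. Of summed FPKM, the granulocyte list held 3.65% to 7.5% in TOX knockout and 0.0806% to 2.58% in wild-type libraries, and the erythroid list 3.05% to 28.7% in TOX knockout and 1.69% to 7.33% in wild type. Mean FPKM was higher in TOX knockout cells for 14 of 14 granulocyte, 8 of 8 erythroid, 9 of 9 B and plasma cell, 5 of 6 monocyte and 4 of 6 dendritic cell genes. Of the 14, 8, 7, 4 and 5 of these that entered the fit, 0 were called as deposited, beside 1.92% of all genes. After median-ratio scaling Mmp8, Ms4a6c and Flt3 were called higher (limma adjusted p = 0.0352, 0.0151 and 0.00631), beside 1.97% of all genes called in either direction. In these bulk samples fewer cells of a type and less RNA per cell cannot be told apart.

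No proteasome gene passed the test for a change between TOX knockout and wild-type cells. Of the 49 members, 47 had a mean of at least 1 FPKM and entered the limma fit over 10693 genes on log2(FPKM + 1), and 0 of these 47 reached an adjusted p of 0.05, beside 1.92% of all genes tested. The smallest adjusted p among members was 0.184, for Psmb8. Unadjusted, 1 of 47 members had a limma p under 0.05, against 20.6% of all genes, and in 0 of 47 did the 4 TOX knockout values lie wholly above or below the 4 wild-type values, against 12.1% of all genes.

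Most members nevertheless had a lower average log2 level in TOX knockout cells, as most genes did. The difference, TOX knockout minus wild type, was negative for 42 and positive for 5 of the 47 members, with a median of -0.43 on the log2 scale, and 78.5% of all genes tested were negative, with a median of -0.52. The 5 immunoproteasome genes had a median of -0.80 and the other 42 a median of -0.38. When libraries were instead scaled by median ratios, which brought the median of all genes to -0.03, the medians became -0.20 for the immunoproteasome genes and 0.19 for the others, and 19 members were negative and 28 positive. Again 0 of 47 members were called, beside 1.97% of all genes, and 5 had an unadjusted p under 0.05, beside 19% of all genes. The direction of many single members therefore turned with the scaling, while the immunoproteasome median lay below that of the other members under both. Those other members include the 6 ATPases of the regulatory particle, with medians of -0.82 as deposited and -0.24 after median-ratio scaling. A low median was therefore not particular to the immunoproteasome genes. Within a library, the mean log2 level of the 5 immunoproteasome genes exceeded that of the other tested members by 1.06, 1.25, 1.41 and 0.48 in TOX knockout libraries 10, 11, 16 and 29, against 1.28, 1.27, 1.19 and 1.78 in wild-type libraries. The lowest and the highest value belonged to the libraries numbered 29, TOX knockout library 16 lay above 3 of the 4 wild-type libraries, and this difference was not tested.

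**Figure D1:**
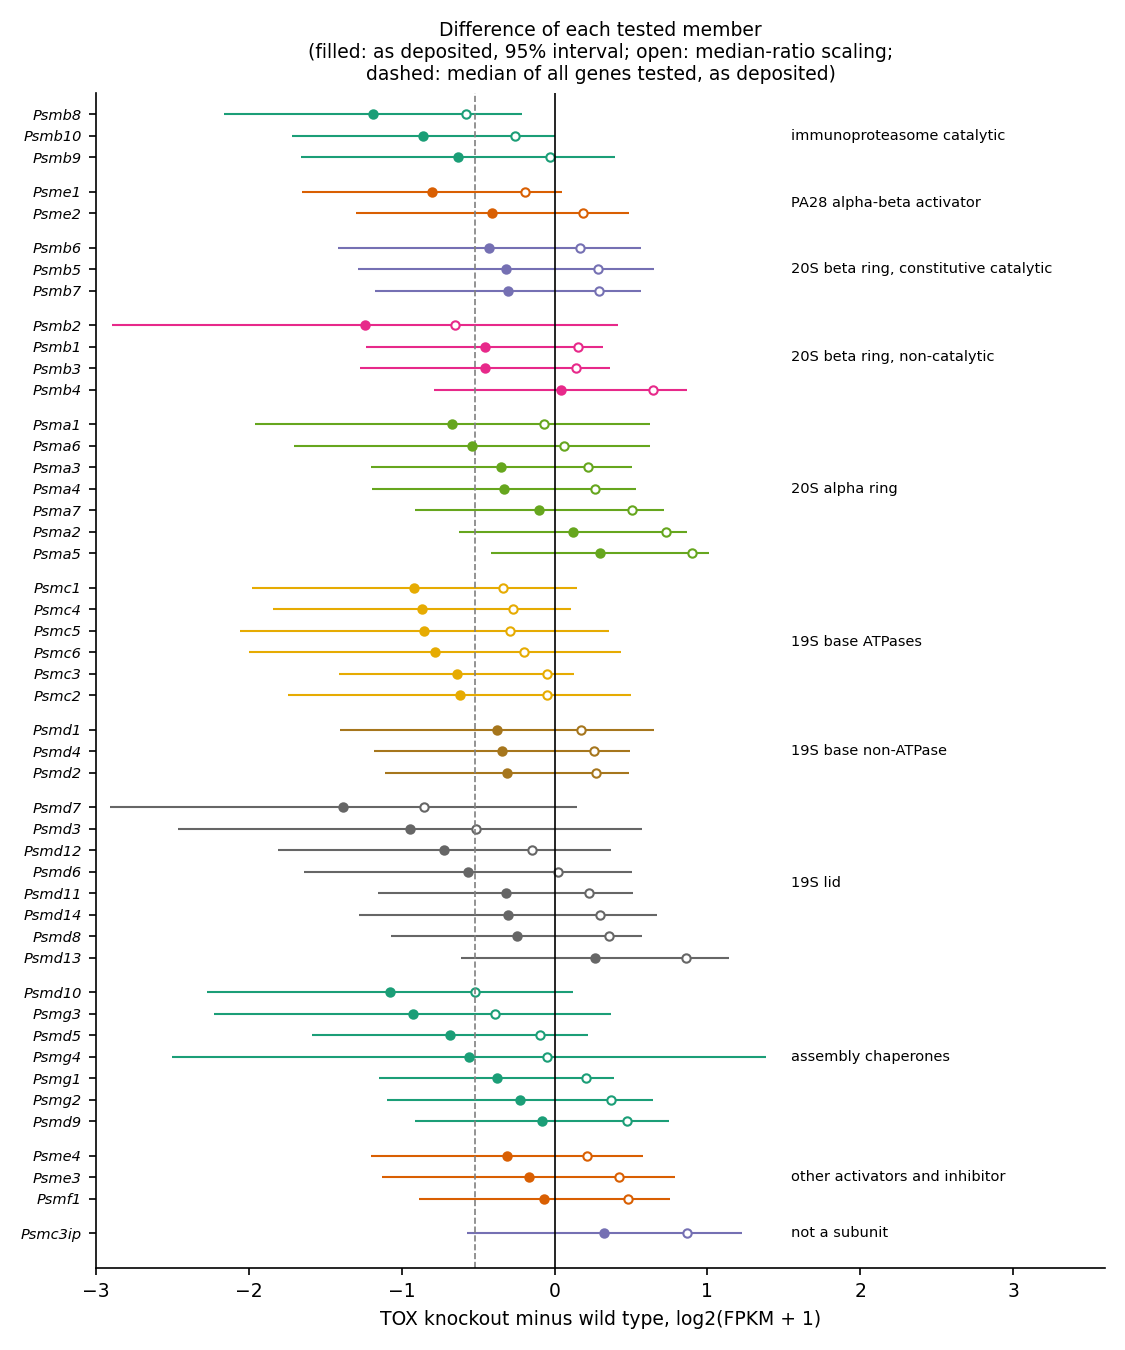
Difference of each tested proteasome gene, TOX knockout minus wild type on log2(FPKM + 1), by role; filled points are values as deposited with 95% intervals, open points the same after median-ratio scaling, and the dashed line is the median of all genes tested as deposited. The filled points run from -1.38 for Psmd7 to 0.33 for Psmc3ip, and 46 of the 47 intervals include 0.

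The intervals also show what these libraries could not resolve. The 95% interval of Psmb8 was the only one of 47 to exclude 0, while 39 of 47 included a halving in TOX knockout cells (-1) and 4 included a doubling (+1). Their half-widths ran from 0.71 for Psma5 to 1.94 for Psmg4, with a median of 0.90.

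Psmb8, the immunoproteasome subunit with chymotrypsin-like activity (also called LMP7), was the most abundant member in both groups. It lies at chr17:34198195-34201454 (mm10) in the MHC class II region and was measured at 181, 279, 82.5 and 89.6 FPKM in TOX knockout libraries 10, 11, 16 and 29, against 232, 408, 224 and 487 FPKM in wild-type libraries 10, 11, 16 and 29. The groups overlapped through TOX knockout library 11, which lay above wild-type libraries 10 and 16, while TOX knockout libraries 16 and 29 were below all others. The means were 158 ± 92.4 FPKM in TOX knockout and 338 ± 131 FPKM in wild-type cells (SD, n = 4 each), a difference of -1.19 (SE 0.45, 95% interval -2.17 to -0.21, limma adjusted p = 0.184). After median-ratio scaling the difference was -0.58 (adjusted p = 0.299).

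Psmb9, which takes the place of Psmb6, lies beside it at chr17:34182099-34187330, with Tap1, a subunit of the transporter that carries peptides into the endoplasmic reticulum, between them. It had 94.7, 90.7, 20.4 and 44.1 FPKM in TOX knockout libraries 10, 11, 16 and 29, against 68.3, 67.9, 83.2 and 120 FPKM in wild-type libraries 10, 11, 16 and 29. TOX knockout libraries 10 and 11 were thus above all wild-type libraries but 29, and TOX knockout libraries 16 and 29 below all of them. The difference was -0.63 (SE 0.48, adjusted p = 0.414), and -0.03 after median-ratio scaling. Psmb10, the counterpart of Psmb7 (chr8:105935728-105938392), had 39.5, 52.5, 25.3 and 21.7 FPKM in TOX knockout libraries, against 68.7, 49.9, 40.8 and 93.3 FPKM in wild-type libraries. Only TOX knockout library 11 reached into the wild-type range, and the difference was -0.86 (SE 0.40, adjusted p = 0.244), or -0.26 after median-ratio scaling.

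The PA28 genes Psme1 (chr14:55578494-55581527) and Psme2 (chr14:55587440-55591101) lie 5912 bases apart, and their products form 1 ring-shaped cap. Psme1 had 94.6, 115, 38.1 and 66.5 FPKM in TOX knockout libraries 10, 11, 16 and 29, against 109, 137, 103 and 172 FPKM in wild-type libraries, a difference of -0.80 (SE 0.39, adjusted p = 0.261). Psme2 had 53.2, 40.5, 17.8 and 18 FPKM in TOX knockout libraries, against 41.2, 30.4, 42.5 and 42.2 FPKM in wild-type libraries, a difference of -0.41 (SE 0.41, adjusted p = 0.534). TOX knockout libraries 16 and 29 were below every wild-type library for both genes, while TOX knockout library 11 lay among the wild-type values. After median-ratio scaling the differences were -0.20 for Psme1 and 0.19 for Psme2, so the sign of Psme2 turned.

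**Figure D2:**
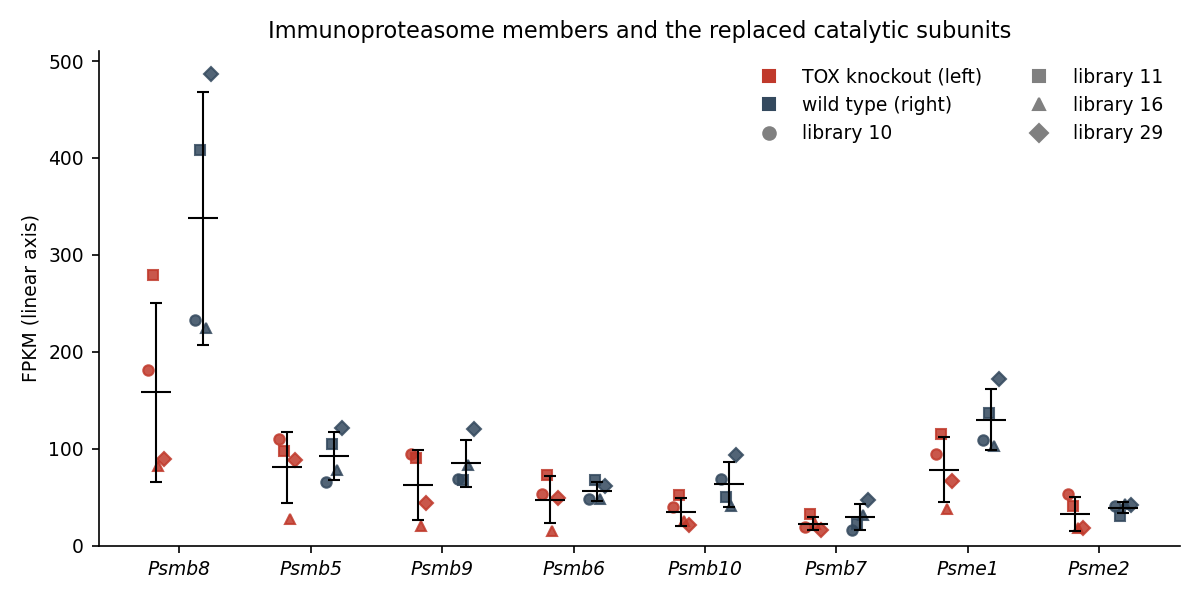
FPKM (linear axis) of the immunoproteasome genes and of the catalytic subunits that Psmb8, Psmb9 and Psmb10 replace, with 1 point for each of 4 TOX knockout and 4 wild-type libraries, and the mean with SD as bars. TOX knockout library 16 is the lowest library for Psmb8, Psmb9, Psme1 and Psme2 and also for Psmb5 and Psmb6, and for all 8 genes the groups overlap.

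The promoters of 4 genes are printed so that the interferon-linked genes Psmb8, Psmb9 and Psme1 can be read beside Psmb5, the subunit that Psmb8 replaces. They come from RefSeq (assembly GRCm38.p6), which held windows of 300 bases, 250 before and 50 after the gene start, for 41 of the 49 members. The windows are chr17:34197945-34198244 on the plus strand for Psmb8, chr17:34187281-34187580 on the minus strand for Psmb9, chr14:55578244-55578543 on the plus strand for Psme1 and chr14:54617946-54618245 on the minus strand for Psmb5. Capitals mark matches on either strand to 4 motifs, which do not overlap each other in these windows. They are the interferon-stimulated element (GAAA, any 2 bases, GAAA) in Psme1, the gamma-activated element (TTC, any 3 bases, GAA) and after it the antioxidant element (TGA, any 4 bases, GCA) in Psmb8, and the CCAAT box, read on the other strand, in Psmb9.
Psmb8: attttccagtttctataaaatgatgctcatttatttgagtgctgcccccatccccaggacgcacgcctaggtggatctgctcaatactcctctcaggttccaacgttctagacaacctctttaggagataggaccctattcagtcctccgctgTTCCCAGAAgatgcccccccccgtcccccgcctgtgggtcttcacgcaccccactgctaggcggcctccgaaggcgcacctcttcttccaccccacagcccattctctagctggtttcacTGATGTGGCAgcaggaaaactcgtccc
Psmb9: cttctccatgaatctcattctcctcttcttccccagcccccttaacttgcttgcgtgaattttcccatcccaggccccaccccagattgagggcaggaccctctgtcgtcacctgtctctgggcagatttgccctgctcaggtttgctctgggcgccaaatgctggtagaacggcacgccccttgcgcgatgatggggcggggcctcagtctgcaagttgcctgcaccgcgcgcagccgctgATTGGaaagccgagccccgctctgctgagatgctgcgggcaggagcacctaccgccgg
Psme1: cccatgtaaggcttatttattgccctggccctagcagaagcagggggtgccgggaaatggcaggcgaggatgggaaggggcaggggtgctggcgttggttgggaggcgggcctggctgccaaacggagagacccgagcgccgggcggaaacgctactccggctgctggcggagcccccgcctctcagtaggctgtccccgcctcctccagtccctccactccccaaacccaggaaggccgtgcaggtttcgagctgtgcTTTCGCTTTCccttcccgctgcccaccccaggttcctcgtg
Psmb5: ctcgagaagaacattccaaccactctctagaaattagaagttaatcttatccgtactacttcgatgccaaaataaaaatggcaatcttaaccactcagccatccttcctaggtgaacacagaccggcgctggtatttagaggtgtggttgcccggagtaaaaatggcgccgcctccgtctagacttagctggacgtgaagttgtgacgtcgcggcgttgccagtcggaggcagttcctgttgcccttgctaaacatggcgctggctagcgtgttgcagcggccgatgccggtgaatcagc
The Psmb5 window held no match to the 4 motifs. Neither did the windows of the immunoproteasome genes Psmb10 and Psme2, which are not printed. Over all members, the interferon-stimulated element was in 5 of 44 windows (3.44% of all 32851 promoter windows), the gamma-activated element in 3 of 44 (8.3% of all), the antioxidant element in 5 of 44 (13.0% of all) and CCAAT in 15 of 44 (37.4% of all). Psme1 was the 1 immunoproteasome gene with the interferon-stimulated element, and Psmb8 the 1 with the gamma-activated element. Outside the immunoproteasome, Psmb3, Psmd4, Psmd9 and Psmg4 held the first of these elements, and Psmd2 and Psmg1 the second. The Psmb9 window shares 275 of its bases with that of Tap1, which is read from the opposite strand, and FPKM of Psmb9 over Tap1 was 2.80, 3.03, 1.44 and 2.74 in TOX knockout libraries 10, 11, 16 and 29, against 2.50, 2.78, 2.77 and 2.50 in wild-type libraries. A match is a run of letters and not a measured binding site.

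The median difference of the 3 constitutive catalytic subunits was -0.32. Psmb5, the chymotrypsin-like subunit (chr14:54614120-54617995), had 110, 97.4, 27.7 and 88.8 FPKM in TOX knockout libraries 10, 11, 16 and 29, against 65.8, 105, 78.0 and 121 FPKM in wild-type libraries, a difference of -0.32 (SE 0.45, adjusted p = 0.654). Psmb6, the caspase-like subunit (chr11:70525357-70527858), had 53.1, 72.8, 14.6 and 49.3 FPKM in TOX knockout libraries, against 48.3, 67.5, 47.7 and 61.4 FPKM in wild-type libraries, a difference of -0.43 (SE 0.46, adjusted p = 0.557). For both, only TOX knockout library 16 lay below the wild-type range. Psmb7, the trypsin-like subunit (chr2:38588046-38643906), had 19.5, 32.2, 22.1 and 16.5 FPKM in TOX knockout libraries, against 16.3, 22.2, 32.1 and 47.0 FPKM in wild-type libraries, a difference of -0.30 (SE 0.40, adjusted p = 0.634), and every TOX knockout value lay within the wild-type range. All 3 had a positive difference after median-ratio scaling (0.29 for Psmb5, 0.17 for Psmb6 and 0.29 for Psmb7). The GENCODE annotation names pseudogenes of all 3, and the sources used here do not say how reads shared with them were assigned.

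The exchange of catalytic subunits was read as the ratio of FPKM within a library, which no scaling of libraries changes. Psmb8 over Psmb5 was 1.64, 2.87, 2.98 and 1.01 in TOX knockout libraries 10, 11, 16 and 29, against 3.53, 3.90, 2.87 and 4.01 in wild-type libraries, with geometric means of 1.94 in TOX knockout and 3.55 in wild-type cells. The 3 highest ratios were wild type, and the groups overlapped because wild-type library 16 lay just above TOX knockout library 11 and below TOX knockout library 16. The log2 difference was -0.87 (two-sided exact permutation test p = 0.0571, 0.171 after Benjamini-Hochberg adjustment over the 3 ratios), where 0.0286 is the smallest p that 4 against 4 libraries can give. It ran from -1.08 without TOX knockout library 16 (exact permutation p = 0.0286, unadjusted, the smallest that 3 against 4 can give) to -0.56 without TOX knockout library 29 (exact permutation p = 0.0857).

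The groups overlapped in the other ratios as they did for Psmb8 over Psmb5, and no ratio was called after adjustment. With 3 ratios, a single ratio at the smallest possible p of 0.0286 would not have been called after adjustment either. The adjusted test therefore cannot decide whether a single ratio differed. Psmb9 over Psmb6 was 1.79, 1.25, 1.39 and 0.895 in TOX knockout libraries, against 1.41, 1.01, 1.75 and 1.95 in wild-type libraries, a log2 difference of -0.20 (exact permutation p = 0.486, also after adjustment). Psmb10 over Psmb7 was 2.02, 1.63, 1.15 and 1.32 in TOX knockout libraries, against 4.21, 2.24, 1.27 and 1.99 in wild-type libraries, a log2 difference of -0.57 (exact permutation p = 0.229, 0.343 adjusted). Wild-type library 10 held the highest Psmb10 ratio, and without it the log2 difference was -0.25.

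**Figure D3:**
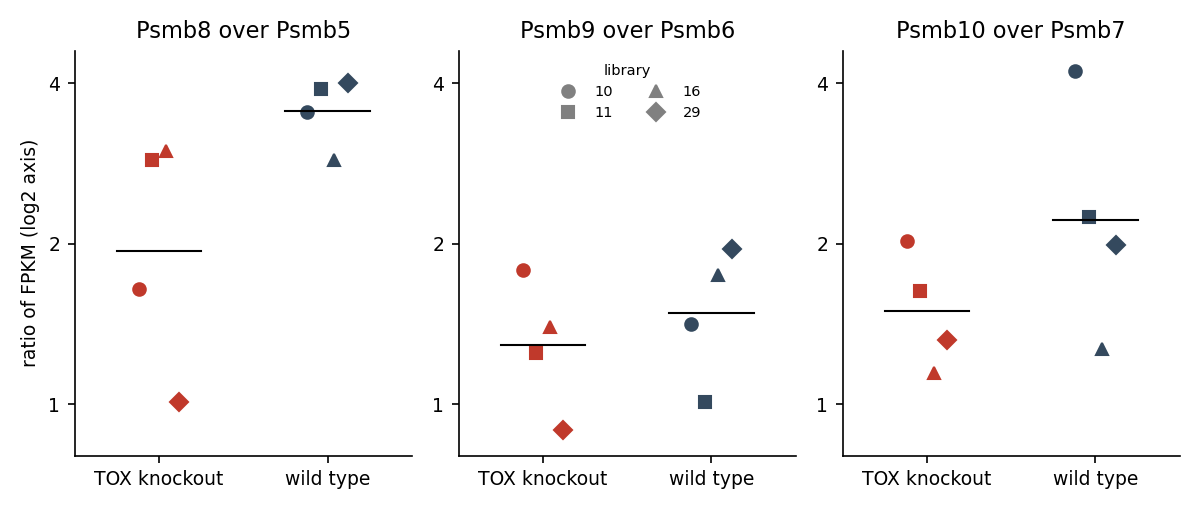
Ratio of FPKM of each immunoproteasome subunit to the constitutive subunit it replaces (log2 axis), with 1 point per library and a line at the geometric mean of each group of 4. For Psmb8 over Psmb5 the geometric means are 1.94 in TOX knockout and 3.55 in wild type, and the groups overlap in all 3 panels.

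The alpha ring forms the gate of the core particle, and its 7 tested genes had a median difference of -0.33 as deposited and 0.27 after median-ratio scaling, with 0 called under either. Psma7, the most abundant of them, averaged 114 ± 43.3 FPKM in TOX knockout and 116 ± 24.2 FPKM in wild-type cells (SD, n = 4 each), a difference of -0.10. Psma5 had the largest positive difference of the ring. It was measured at 39.9, 49.99, 40.4 and 35.2 FPKM in TOX knockout libraries 10, 11, 16 and 29, against 24.5, 38.1, 31.9 and 41.0 FPKM in wild-type libraries, a difference of 0.30 (SE 0.33, adjusted p = 0.57). After median-ratio scaling it was 0.90 (adjusted p = 0.182, the smallest of any member on that scale). Psma1 had the most negative difference, -0.67 (SE 0.60, adjusted p = 0.482), with 143, 115, 13.6 and 85.5 FPKM in TOX knockout libraries, against 108, 103, 126 and 92.1 FPKM in wild-type libraries. TOX knockout library 16 set that mean, and TOX knockout libraries 10 and 11 lay within or above the wild-type values.

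The 4 beta subunits without catalytic activity gave a median difference of -0.46, or 0.15 after median-ratio scaling. Psmb1, the second most abundant member in both groups, averaged 122 ± 45.1 FPKM in TOX knockout and 160 ± 25.5 FPKM in wild-type cells (SD, n = 4 each), a difference of -0.46 (SE 0.36, adjusted p = 0.427). Psmb2 had 150, 172, 6.97 and 78.7 FPKM in TOX knockout libraries 10, 11, 16 and 29, against 125, 156, 163 and 157 FPKM in wild-type libraries, a difference of -1.24 (SE 0.77, adjusted p = 0.343). Its value in TOX knockout library 16 was far below the other 7, and TOX knockout library 11 held the highest. Psmb4 was at 0.04 (SE 0.38, adjusted p = 0.954) as deposited and at 0.64 (adjusted p = 0.215) after median-ratio scaling.

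The 6 ATPases Psmc1 to Psmc6, which unfold the substrate and thread it into the core, had a median difference of -0.82, with values from -0.92 to -0.62. All 6 were negative after median-ratio scaling as well, with a median of -0.24, and 0 of 6 were called under either scale. Psmc1 had 32.3, 29.2, 6.90 and 42.2 FPKM in TOX knockout libraries 10, 11, 16 and 29, against 53.8, 44.5, 36.1 and 46.4 FPKM in wild-type libraries, a difference of -0.92 (SE 0.49, adjusted p = 0.29). TOX knockout libraries 10, 11 and 16 were below all wild-type libraries and TOX knockout library 29 was above wild-type library 16. Psmc4, the most abundant of the ATPases over all 8 libraries though below Psmc6 in TOX knockout cells, averaged 34.7 ± 16.6 FPKM in TOX knockout and 57.1 ± 10.6 FPKM in wild-type cells (SD, n = 4 each), a difference of -0.87 (SE 0.45, adjusted p = 0.282).

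The remaining genes of the regulatory particle had medians above that of all genes. The 3 other subunits of its base had a median of -0.34. Among them the ubiquitin receptor Psmd4 averaged 49.0 ± 22.9 FPKM in TOX knockout and 57.7 ± 7.27 FPKM in wild-type cells, and the scaffold subunit Psmd1 averaged 13.5 ± 7.28 FPKM in TOX knockout and 15.2 ± 0.960 FPKM in wild-type cells (SD, n = 4 each). The 8 lid genes had a median of -0.44, with 7 negative. They held the most negative member of all, Psmd7, the partner of the deubiquitinating subunit Psmd14, with 38.3, 48.4, 1.93 and 16.2 FPKM in TOX knockout libraries 10, 11, 16 and 29, against 49.3, 49.999, 39.9 and 42.0 FPKM in wild-type libraries. TOX knockout library 11 lay within the wild-type range, and the difference was -1.38 (SE 0.71, adjusted p = 0.276). Psmd13, another lid subunit, was the 1 positive lid gene at 0.27 (SE 0.41, adjusted p = 0.681), with 32.1, 17.5, 44.3 and 17.7 FPKM in TOX knockout libraries, against 19.6, 14.5, 24.8 and 29.2 FPKM in wild-type libraries. Psmd8, the most abundant lid gene, averaged 57.9 ± 22.7 FPKM in TOX knockout and 64.3 ± 5.85 FPKM in wild-type cells (SD, n = 4 each).

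All 7 assembly chaperones, which help build the core or the base and are not part of the finished particle, had negative differences, with a median of -0.56 (-0.05 after median-ratio scaling). Psmd10, the oncoprotein gankyrin, had the most negative, -1.08 (SE 0.55, adjusted p = 0.278), with 37.3, 13.7, 3.28 and 15.7 FPKM in TOX knockout libraries 10, 11, 16 and 29, against 33.4, 21.9, 31.6 and 30.1 FPKM in wild-type libraries. TOX knockout library 10 lay above all wild-type libraries and the other 3 below them. Psmg4 was at -0.56 (SE 0.90, adjusted p = 0.694), although its mean was 54.1 FPKM in TOX knockout and 43.7 FPKM in wild-type cells. It had 101, 71.7, 1.46 and 42.5 FPKM in TOX knockout libraries 10, 11, 16 and 29, against 34.9, 56.0, 39.8 and 44.1 FPKM in wild-type libraries. For Psmg4 only TOX knockout library 16 lay below the wild-type range. The other activators and the inhibitor Psmf1 had a median of -0.17, with differences of -0.17 for Psme3, which forms the nuclear PA28 gamma cap, and -0.31 for Psme4, which encodes PA200. Psmc3ip, the member that is no subunit, had the largest positive difference, 0.33 (SE 0.42, adjusted p = 0.62).

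Both members under the filter are tissue-restricted core subunits. Psma8, known from the testis, was listed at 1.48, 1.27, 0.0861 and 0.256 FPKM in TOX knockout libraries 10, 11, 16 and 29, against 0, 0.316, 1.74 and 0.0697 FPKM in wild-type libraries. Psmb11, the thymoproteasome subunit of thymic cortical epithelium, was listed at no more than 0.138 FPKM in any TOX knockout library and no more than 0.0387 FPKM in any wild-type library. Neither gene was tested.

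Members varied more between TOX knockout libraries than between wild-type libraries, as genes in general did. The SD over TOX knockout libraries exceeded that over wild-type libraries for 44 of 47 members, with medians of 0.73 in TOX knockout and 0.28 in wild type on the log2 scale, and for 9225 of 10693 genes tested, with medians of 0.79 in TOX knockout and 0.36 in wild type. Measured from the wild-type mean, the median member lay at 0.08, 0.10, -1.25 and -0.42 in TOX knockout libraries 10, 11, 16 and 29, against 0.01, 0.06, -0.09 and 0.06 in wild-type libraries 10, 11, 16 and 29. TOX knockout libraries 10 and 11 were therefore near the wild-type level of the proteasome genes, and TOX knockout library 16 was the lowest of the 8 libraries for 39 of 47 members. The median of all genes tested lay at -0.08, 0.03, -1.22 and -0.71 in TOX knockout libraries 10, 11, 16 and 29. That of the 5 immunoproteasome genes lay at -0.42, -0.15, -1.71 and -1.06 in TOX knockout libraries, against -0.22, -0.27, -0.31 and 0.53 in wild-type libraries, below the all-gene median in every library but wild-type library 29.

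In TOX knockout library 16 the members did not move by 1 common amount. Their deviations from the wild-type mean ran from -4.24 for Psmb2 to 1.02 for Psmd13, with an SD over members of 1.14, against 0.36 to 0.51 in the other TOX knockout libraries and 0.25 to 0.30 in wild-type libraries. Over all genes tested this SD was 1.19 in TOX knockout library 16, 0.77 to 1.21 in the other TOX knockout libraries and 0.40 to 0.49 in wild-type libraries. Without it the median SD over TOX knockout libraries was 0.39, and 0 of 47 members were called, beside 3.24% of all genes. The immunoproteasome median was then -0.50, that of the other members -0.06 and that of all genes -0.26. Without TOX knockout libraries 16 and 29 together, again 0 of 47 members were called, beside 2.64% of all genes, and the medians were -0.29 for the immunoproteasome genes, 0.08 for the other members and -0.03 for all genes.

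**Figure D4:**
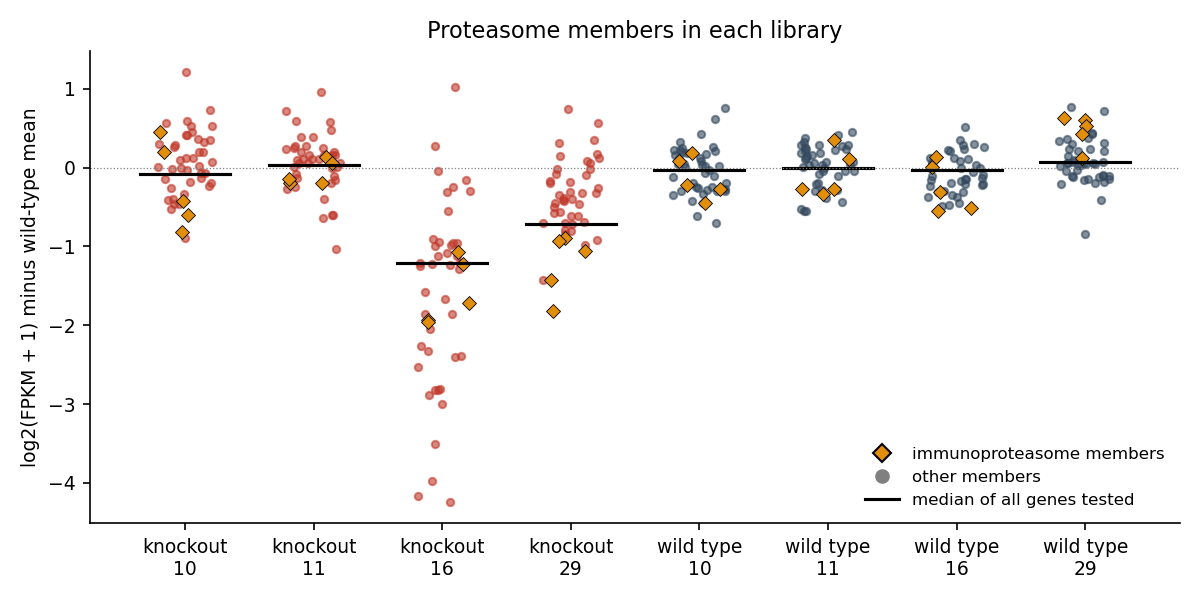
Deviation of each tested member from the wild-type mean, on log2(FPKM + 1), in each library, with diamonds for immunoproteasome genes, circles for other members and a line at the median of all genes tested. The median member lies at -1.25 in TOX knockout library 16 and -0.42 in TOX knockout library 29, and between -0.09 and 0.10 in the other 6 libraries.

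Summed over members, the proteasome genes reached 2732, 2766, 907 and 1781 FPKM in TOX knockout libraries 10, 11, 16 and 29, against 2424, 2788, 2482 and 2982 FPKM in wild-type libraries. The 5 immunoproteasome genes made up 463, 578, 184 and 240 FPKM of these sums in TOX knockout libraries, against 520, 693, 493 and 914 FPKM in wild-type libraries. A total of FPKM was also taken without the Hba and Hbb globin genes. It kept the entry Beta-s, a further beta-globin name with a mean of 19433 FPKM, which the erythroid list also lacks. As a percent of that total the 5 immunoproteasome genes were 0.108%, 0.174%, 0.0982% and 0.0531% in TOX knockout libraries, against 0.178%, 0.224%, 0.145% and 0.272% in wild-type libraries. TOX knockout library 11 was above wild-type library 16 on this share and the other 3 TOX knockout libraries were below all wild-type libraries. The lowest share was in TOX knockout library 29, which also had the highest erythroid share, 28.7%; the part of the erythroid and granulocyte genes in these values was not tested.

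Genes that act with the proteasome were read from 6 lists of 57 tested genes in all, and 0 of them were called, beside 1.92% of all genes. The median difference was -0.41 for 15 partners of the proteasome that the naming rule does not take, -0.58 for 6 ubiquitin and E1 genes, -0.71 for 6 genes of the VCP segregase, which pulls ubiquitinated proteins out of complexes, and -0.06 for 8 transcription and feedback factors, and each of these 4 lists held 1 gene with an unadjusted limma p under 0.05, beside 20.6% of all genes. After median-ratio scaling these medians were 0.09 for the partners, -0.04 for the ubiquitin and E1 genes, -0.16 for the VCP genes and 0.46 for the factors. In 3 of the 15 partners the groups did not overlap, against 12.1% of all genes. Akirin2 and Txnl1 had lower values in every TOX knockout library. Shfm1, which encodes the small lid subunit also called DSS1, had higher ones. It was listed at 1008, 606, 649 and 831 FPKM in TOX knockout libraries, against 375, 575, 576 and 547 FPKM in wild-type libraries. Its difference was 0.57 (SE 0.33, adjusted p = 0.322), and it was picked out after its values were seen. Usp14, a deubiquitinase bound to the proteasome, was at -1.40 (adjusted p = 0.236), Akirin2, an adaptor for the nuclear import of proteasomes, at -0.62 (adjusted p = 0.282), and the polyubiquitin gene Ubb at -1.20 (adjusted p = 0.292). The VCP adaptors Faf2 and Nsfl1c lay at -1.52 (adjusted p = 0.136) and -0.96 (adjusted p = 0.253). Of the factors, Ngly1, which acts on the proteasome gene activator Nfe2l1, was at -1.28 (adjusted p = 0.153), and the cell-cycle factor Foxm1 at 0.95 (adjusted p = 0.251).

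As deposited, all 13 genes of MHC class I antigen processing had negative differences, with a median of -0.55, beside -0.52 for all genes; after median-ratio scaling 7 were negative and 6 positive, with a median of -0.07. Under either scaling 0 of 13 were called, and as deposited 4 of 13 had an unadjusted limma p under 0.05, beside 20.6% of all genes. Tapbpl, the peptide editor TAPBPR, had the most negative as deposited, -2.09 (SE 0.53, adjusted p = 0.0689), with 3.45, 2.05, 0.137 and 0.109 FPKM in TOX knockout libraries, against 14.3, 6.51, 5.42 and 6.74 FPKM in wild-type libraries. Pdia3, a disulfide isomerase of the peptide-loading complex, followed at -1.51 (adjusted p = 0.12), and the transporter subunits lay at -0.49 for Tap1 and -1.43 for Tap2. The heavy chains H2-K1 and H2-D1 were at -0.55 and -0.83, H2-T23 at -0.54, and B2m, the light chain of class I molecules, at -0.83. The chaperones Calr, Canx and Tapbp were at -0.44, -0.42 and -0.32, the peptidase Erap1 at -1.04, and Nlrc5, the transactivator of class I genes, at -0.45.

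The 9 interferon-linked regulators of the immunoproteasome did not share a direction, with 6 negative and 3 positive differences, a median of -0.39, 0 called and 3 of 9 with an unadjusted limma p under 0.05, beside 20.6% of all genes. After median-ratio scaling 4 were negative and 5 positive, with a median of 0.17. Jak2, a kinase of the interferon gamma receptor, had 13.2, 18.3, 1.57 and 5.72 FPKM in TOX knockout libraries 10, 11, 16 and 29, against 31.7, 43.6, 22.9 and 33.3 FPKM in wild-type libraries, a difference of -2.00 (SE 0.56, adjusted p = 0.0977). Irf8, a transcription factor of myeloid and B cells, had a positive difference, with 55.4, 79.5, 10.4 and 42.4 FPKM in TOX knockout libraries, against 8.24, 9.92, 19.2 and 9.17 FPKM in wild-type libraries. Its difference was 1.69 (SE 0.55, adjusted p = 0.145) and, after median-ratio scaling, 2.25 (adjusted p = 0.014), which passed the threshold. Irf1, which induces Psmb8, Psmb9 and Psmb10, was at -0.85 (SE 0.56, adjusted p = 0.364), with 35.9, 40.4, 36.1 and 4.97 FPKM in TOX knockout libraries, against 36.7, 47.6, 37.9 and 49.8 FPKM in wild-type libraries. TOX knockout library 29 alone was far from the rest. Jak1, another kinase of interferon receptors, was at -1.16, Irf2 at -0.39, Irf9 at -0.24, Ifngr1 at -0.62 and Ifngr2 at 0.15.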

How the data were processed

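The authors deposited 1 FPKM value per gene and library. Per the submitters' processing notes, these FPKM values came from Cufflinks and mouse build mm10. The sources used here give no version, aligner or annotation, and do not say whether strand was used. Column names give the genotype and a library number, which differs from the replicate number in the labels, so columns were assigned to groups only.

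Genes with a mean of at least 1 FPKM were compared on log2(FPKM + 1) by limma 3.58.1 (R 4.3.3), with a trended prior variance and Benjamini-Hochberg adjustment over 10693 genes; an adjusted p under 0.05 was called. The log2(FPKM + 1) scale understates changes of low genes. Ratios were compared by two-sided exact permutation tests. Named genes were the immunoproteasome genes and their counterparts, in each role class the most abundant and the most positive and negative member, members under the filter, and, in each pathway list, the genes with the smallest p (for 2 lists, every gene). Shfm1, Txnl1 and Psmg4 were named after their values were seen. Of the genes this rule took, 2 are not reported here. The members and lists were chosen with earlier results of these data known. Of the members, 7 overlap another entry in position, Psma3 over 3309 bases with 3110056K07Rik (9.03 FPKM). Alternatives covered the pseudocount, filter, scaling, weights, variance model, barcode run, block and each library left out. The scaling without globin left out Hba and Hbb genes but kept the entry Beta-s.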

Additional observations from a re-analysis of the deposited data

Results flagged for a closer look

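Of 62 groups of 4 libraries screened for a value far from the other 3, 1 was picked out. Psme2, a subunit of the PA28 cap, was listed at 30.4 FPKM in wild-type library 11, while the other 3 wild-type libraries lay between 41.2 and 42.5 FPKM; the gap was 0.887 of the range of the group. Chance alone picks out about 1 in 20 such groups, and the value lies within the span of the TOX knockout libraries. No test of a cause was run.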

How the results depend on the processing

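Under all 33 alternatives 0 members were called, with the smallest adjusted p of any member between 0.0573 and 0.652. Under each, the immunoproteasome median lay below that of the other members by 0.18 to 0.59. Those other members include the 6 ATPases, whose median was below the immunoproteasome median as deposited and after median-ratio scaling. Psmb8 ranged from -1.52 to -0.41, with adjusted p from 0.0573 to 0.684. The cause of the changes below was not tested.

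The 205 genes changed in all became 106 at pseudocount 0.1, 73 at pseudocount 0.01, 74 with no filter, 116 at a mean of at least 5 FPKM, 496 with equal summed FPKM, 326 with equal summed FPKM without globin, 728 with library weights, 5 in the first and 95 in the second barcode run alone. They split into 21 higher and 184 lower as deposited, and 92 higher and 116 lower after median-ratio scaling. Leaving out 1 library gave 61 to 654 with both scalings; as deposited it was 351 without TOX knockout library 16, 106 without 29 and 654 without 11, and 89, 82, 123 and 87 without wild-type libraries 10, 11, 16 and 29. The pathway lists held 1 called gene after median-ratio scaling (Irf8), 3 after quantile normalization, 4 with equal sums, 5 with equal sums without globin, 3 with weights, 1 without TOX knockout libraries 16 and 29, and 0 to 5 with 1 library left out.

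Whether the library numbers pair the samples is not known. Deviations of same-numbered TOX knockout and wild-type libraries from their group means correlated at 0.04 (10), 0.26 (11), 0.0062 (16) and -0.02 (29). With so few libraries these values cannot decide it, and same-numbered libraries carry consecutive barcodes. With the number as a block, 344 genes, 0 members and 3 pathway genes were called.

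Median-ratio scaling turned 23 of 47 members from negative to positive. Signs that turned are listed (log2) only for members that the rule for named genes took, so the list does not cover all 47 members. None of those listed was called. Median-ratio scaling gave Psme2 0.19, Psmb5 0.29, Psmb6 0.17, Psmb7 0.29, Psma7 0.51, Psmb1 0.15, Psme3 0.42, Psme4 0.21, Psmd4 0.26, Psmd1 0.17, Psmd8 0.35 and Psmg2 0.37. Quantile normalization gave Psmb7 0.099, Psma7 0.15, Psme3 0.19, Psme4 0.20, Psmd1 0.10, Psmd8 0.065 and Psmg2 0.12. Equal sums gave Psmb4 -0.19. Weights gave Psmb9 0.031, Psme2 0.17, Psmb5 0.093, Psma7 0.17, Psma1 0.11, Psme3 0.13, Psmd4 0.11, Psmd8 0.12 and Psmg2 0.15. The first run gave Psmb4 -0.078 and Psmc3ip -0.46, and the second Psma1 0.022, Psme3 0.49, Psmd1 0.25, Psmd8 0.040 and Psmd13 -0.22. Without TOX knockout libraries 16 and 29 they were Psmb9 0.17, Psme2 0.26, Psmb5 0.20, Psmb6 0.16, Psma7 0.34, Psma1 0.26, Psmb1 0.0034, Psmb2 0.10, Psme4 0.10, Psmd4 0.15, Psmd1 0.098, Psmd8 0.20, Psmg2 0.30, and 0.0070 for Psmb9 over Psmb6. With 1 library left out, the ranges were -0.52 to 0.13 for Psmb5, -0.70 to 0.049 for Psmb6, -0.29 to 0.19 for Psma7, -1.03 to 0.068 for Psma1, -0.15 to 0.36 for Psmb4, -0.47 to 0.21 for Psme3, -0.63 to 0.12 for Psmd1, -0.43 to 0.076 for Psmd8, -0.43 to 0.013 for Psmg2 and -1.08 to -0.56 for Psmb8 over Psmb5.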

Other observations

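FPKM of Psme1 over Psme2, the 2 kinds of subunit of the PA28 cap, was 1.78, 2.83, 2.14 and 3.69 in TOX knockout libraries 10, 11, 16 and 29, against 2.65, 4.51, 2.41 and 4.07 in wild-type libraries 10, 11, 16 and 29. FPKM of Psmb8 over its neighbour Psmb9 was 1.91, 3.08, 4.04 and 2.03 in TOX knockout libraries, against 3.402, 6.002, 2.69 and 4.06 in wild-type libraries. In both ratios the groups overlapped, and neither was tested.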
